A study of Mus musculus with 23 samples.

Results

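Adrenomedullin and the receptors of the adrenomedullin and natriuretic peptide families were followed across 3 vascular beds of mice infused with angiotensin II (Ang II). All probes annotated to Adm, Calcrl, Ramp1, Ramp2, Ramp3, Npr1, Npr2 and Npr3 were taken, which gave 16 probes for 8 genes out of 45281 transcripts on the array. Of these, 12 probes for 7 genes were tested among 20585 transcripts for which 3 or more arrays gave a detection p below 0.01. Male C57BL/6J mice received 490 ng/kg/min of Ang II (AngII) or vehicle (Sham) for 14 days from 12 weeks of age. Thoracic aorta and abdominal aorta each had 3 AngII and 3 Sham arrays, and mesenteric arteries had 6 AngII and 5 Sham arrays, 23 arrays in all. Every array carried a pool of RNA from 2 vessels of the same kind and treatment, and a p-value here reflects how much such pools vary. Given the number of mice the authors report, pools of different vessels must share mice, but which pools share them is not stated.

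Adrenomedullin, the product of Adm, is a vasodilator peptide released by endothelial and smooth muscle cells. It acts on a G protein-coupled receptor, Calcrl, which reaches the cell surface only together with a receptor activity-modifying protein. Ramp1 turns Calcrl into the receptor of calcitonin gene-related peptide (CGRP), whereas Ramp2 and Ramp3 turn it into adrenomedullin receptors, and all of these raise cAMP. Npr1 and Npr2 are membrane guanylyl cyclases that make cGMP when they bind atrial and brain natriuretic peptide (Npr1) or C-type natriuretic peptide (Npr2). Npr3 lacks the cyclase and is known as the clearance receptor, which takes up natriuretic peptides.

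Signals are given on the log2 scale after background correction and quantile normalization, where 1 unit is a 2-fold difference. They rank arrays for a given probe and do not rank probes against each other. Arrays of a group are named by letters that pair nothing. Arrays detected 17432 to 18657 transcripts. In 3 mesenteric arrays (AngII arrays a and b, Sham array a) pancreatic enzyme transcripts were abundant, with the trypsinogen Try4 between 12.37 and 14.04, and in Sham abdominal array a the skeletal muscle actin Acta1 reached 11.19. All 10 smooth muscle markers and all 18 endothelial markers tested were detected in every vessel.

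Adm and Ramp1 were the members that passed the test of AngII against Sham in thoracic aorta, so the 250 bases before their annotated start are shown. Promoters of 7 of the 8 members were found in the RefSeq table (build GRCm38.p6), and these 2 are drawn from it. Of 6 motifs, TATAA was searched on the strand of the gene and the others on both strands. These others were GGGCGG (a GC box), ACGTG (a form of the core bound by hypoxia-inducible factors) and TGANTCA (an AP-1 site). The rest were TGACGTCA (a cAMP response element) and the CArG box of serum response factor. GCGTG, another form of the hypoxia-inducible factor core, was not searched. Capitals mark matches, and no match overlapped another.
Adm, chr7:110627407-110627656, plus strand: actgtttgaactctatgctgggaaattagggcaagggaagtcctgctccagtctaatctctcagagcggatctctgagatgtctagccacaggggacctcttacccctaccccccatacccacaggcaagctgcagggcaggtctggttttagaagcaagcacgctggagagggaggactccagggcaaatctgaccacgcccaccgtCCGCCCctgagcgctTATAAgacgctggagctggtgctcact
Ramp1, chr1:91179572-91179821, plus strand: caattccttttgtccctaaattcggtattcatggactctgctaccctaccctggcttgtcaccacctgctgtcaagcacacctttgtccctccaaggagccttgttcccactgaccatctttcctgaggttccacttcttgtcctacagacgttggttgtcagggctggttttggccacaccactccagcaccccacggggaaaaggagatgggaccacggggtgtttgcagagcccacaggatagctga
In Adm, TATAA began 27 bases before the start and GGGCGG, read on the opposite strand, 42 bases before it. The other 4 motifs had no match in Adm, and none of the 6 had a match in Ramp1. The unsearched form GCGTG, read on the opposite strand as cacgc, does occur in the printed Adm letters. Of 32851 promoter windows of this length in the table, 16% held TATAA, 32.7% GGGCGG, 16.6% ACGTG, 6.75% TGANTCA, 1.55% TGACGTCA and 1.47% a CArG box, and a match is a description of the letters only. GC content was 56.8% for Adm and 54% for Ramp1.

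The first question was which members differed between AngII and Sham within a vessel. In thoracic aorta Adm was 2.02-fold lower and Ramp1 1.28-fold lower with AngII, and the other 5 members tested did not pass an adjusted p of 0.05. With the authors' normalized values both differences were -0.35 on the log2 scale, so the larger size of the Adm difference depends on the processing. None passed in abdominal aorta or in mesenteric arteries. The share of all transcripts called was 17.3% in thoracic aorta, 1.09% in abdominal aorta and 0.340% in mesenteric arteries, and 8.62% of transcripts were called lower in thoracic aorta, where 2 of 7 members were. Arrays of the 2 treatments did not overlap for 2 of 7 members in thoracic aorta (36.9% of all transcripts), for 3 in abdominal aorta (21.1%) and for 1 in mesenteric arteries (2.52%). The 3 in abdominal aorta were Calcrl, Npr1 and Npr3, and no abdominal array detected Calcrl.

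Adm was detected on all 23 arrays. In thoracic aorta its signal was 6.70, 6.23 and 6.84 on the Sham arrays, against 5.64, 5.33 and 5.75 on the AngII arrays. Every AngII array lay below every Sham array. The difference was -1.02 ± 0.17 (SE, limma, adjusted p = 0.00436), and -0.35 (adjusted p = 0.0153) with the authors' normalized values.

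In abdominal aorta Adm measured 6.38, 6.65 and 6.64 on the Sham arrays and 5.96, 6.47 and 5.81 on the AngII arrays. The groups overlapped through AngII array b. The difference was -0.47 ± 0.17 (limma, adjusted p = 0.243, 95% interval -0.87 to -0.08 before adjustment). In mesenteric arteries the Sham arrays ran from 7.80 to 8.34 (median 8.09, n = 5) and the AngII arrays from 7.23 to 8.03 (median 7.68, n = 6). These groups also overlapped, and the difference of -0.36 ± 0.13 did not pass (limma, adjusted p = 0.217). Without the 3 pancreas-rich arrays it was -0.41 (adjusted p = 0.344), and without the Acta1-rich Sham array the abdominal difference was -0.56 (adjusted p = 0.311).

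The direction was thus downwards in all 3 vessels, and the fit over all 23 arrays with tissue as a covariate gave a difference of -0.56 ± 0.11 for Adm (limma, adjusted p = 0.00317), with 10.7% of transcripts called in that fit, and 5.27% called lower. The difference in AngII effect on Adm between thoracic aorta and mesenteric arteries was -0.66 ± 0.24 and did not pass (limma, adjusted p = 0.0839). It reached adjusted p = 0.0324 (-0.75) without mesenteric AngII array d and 0.0407 (-0.84) without thoracic Sham array b.

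**Figure D1:**
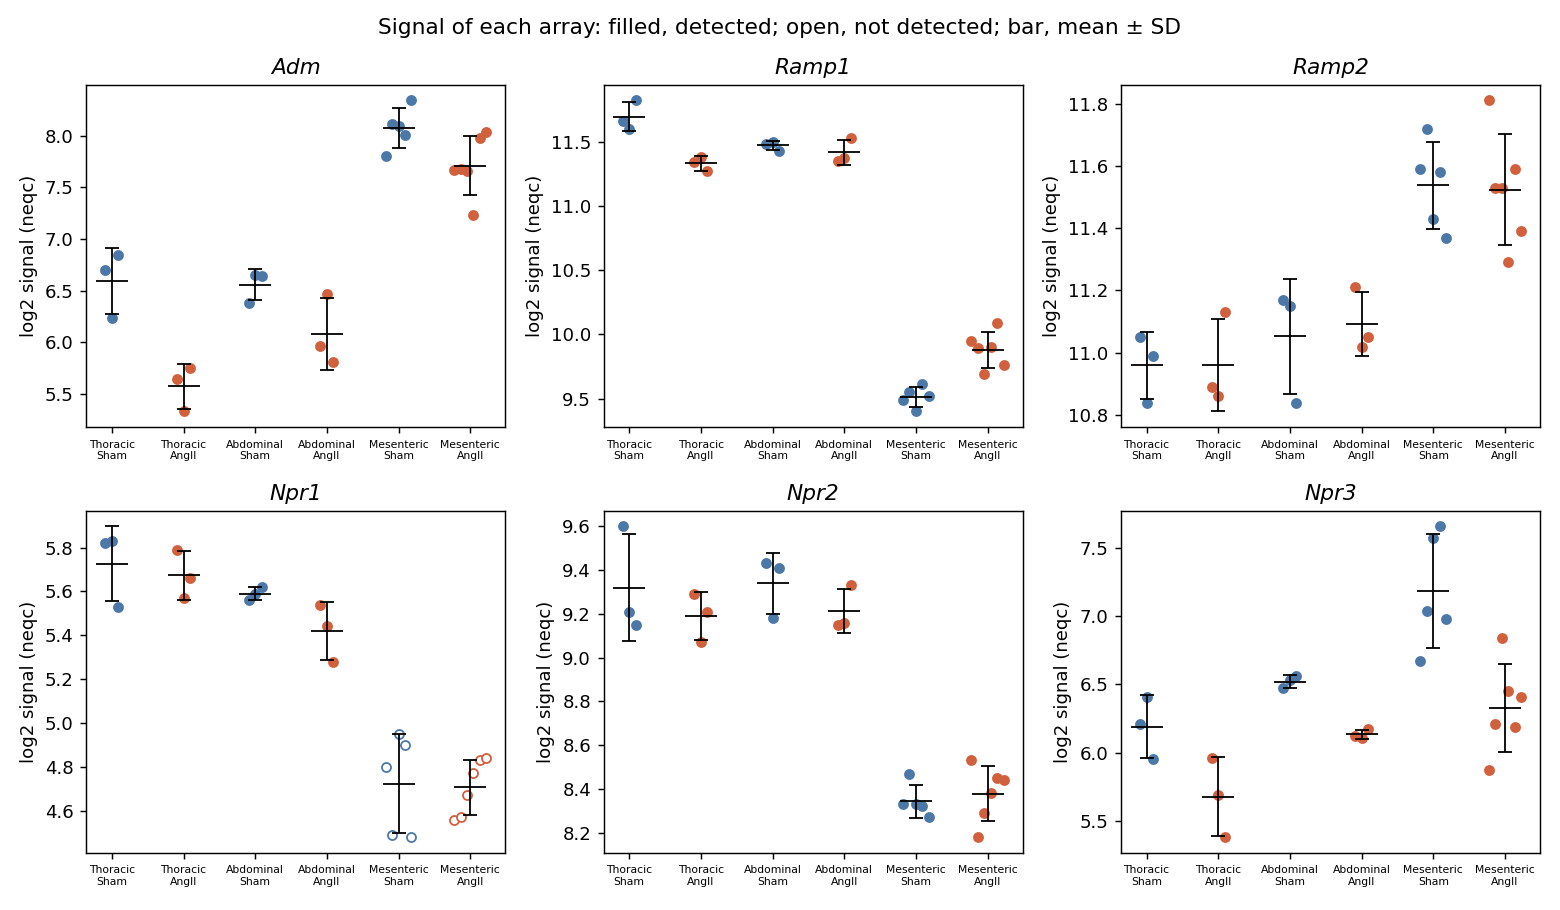
Log2 signal (y axis) of 6 members on each of the 23 arrays, by vessel and treatment (x axis); points are arrays (filled where detected), and bars are the mean ± SD of the group. Adm separates completely in thoracic aorta, Ramp1 is lower with AngII in thoracic aorta and higher with AngII in mesenteric arteries, and no mesenteric array detected Npr1.

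Calcrl, the receptor that the RAMPs share, was close to background. Its probe was detected on 3 of 23 arrays, 2 of thoracic Sham (5.0 and 5.12) and 1 of mesenteric AngII (5.04). The remaining arrays ran from 4.22 to 4.74. No difference between AngII and Sham passed, and the values were -0.27 ± 0.16 in thoracic aorta, -0.18 ± 0.10 in abdominal aorta and 0.07 ± 0.13 in mesenteric arteries. Without thoracic Sham array b the thoracic difference was -0.47 (adjusted p = 0.0359), and no AngII array of thoracic aorta detected the probe.

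Ramp1, the CGRP receptor partner, was lower with AngII in thoracic aorta and missed the threshold in mesenteric arteries, where its difference was positive. In thoracic aorta its signal was 11.66, 11.60 and 11.82 on the Sham arrays and 11.34, 11.38 and 11.27 on the AngII arrays. The groups did not overlap. The difference was -0.36 ± 0.09 (limma, adjusted p = 0.0325).

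The thoracic call of Ramp1 was narrow. Leaving out any of the 6 arrays moved the adjusted p to between 0.0527 and 0.0967, with differences from -0.40 to -0.29. The other Ramp1 probe, designed on a cDNA record and detected on all 12 aortic arrays, was also lower, with 6.71, 6.71 and 6.85 on the Sham arrays and 6.11, 6.07 and 6.39 on the AngII arrays. Its difference was -0.57 ± 0.11 (limma, adjusted p = 0.00943), and it passed in all 17 alternatives run for it.

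In mesenteric arteries the main Ramp1 probe ran from 9.40 to 9.61 on the Sham arrays (median 9.52) and from 9.69 to 10.09 on the AngII arrays (median 9.89). Every AngII array lay above every Sham array, a pattern that 1.59% of transcripts showed in this direction. The difference was 0.37 ± 0.08 but missed the threshold (limma, adjusted p = 0.0667), and 5 of 23 alternatives brought it past. Without the 3 pancreas-rich arrays it was 0.34 (adjusted p = 0.239). In abdominal aorta the Sham arrays measured 11.48, 11.50 and 11.43 and the AngII arrays 11.35, 11.37 and 11.53, which overlapped (-0.05 ± 0.11, adjusted p = 0.858).

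The difference in AngII effect between thoracic aorta and mesenteric arteries was tested directly. It was -0.72 ± 0.12 for Ramp1 (limma interaction, adjusted p = 0.000464), and Ramp1 was the only member of 7 called in that test, in which 11.4% of transcripts were called and 5.99% called lower. The other Ramp1 probe gave -0.85 ± 0.20 (adjusted p = 0.00691). Abdominal aorta against mesenteric arteries gave -0.42 ± 0.12 (adjusted p = 0.0708, 1.85% of transcripts called), and thoracic against abdominal aorta -0.30 ± 0.14 (adjusted p = 0.463, 0.452% called). With the 3 pancreas-rich mesenteric arrays left out, the thoracic against mesenteric difference was -0.70 (adjusted p = 0.00303).

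Smooth muscle markers were set beside Ramp1. In thoracic aorta 4 of 10 were lower with AngII, among them the smooth muscle myosin heavy chain Myh11 (-0.52) and the actin-binding Synpo2 (-0.59), none was higher, and the median of the 10 was -0.31 against -0.02 over all transcripts tested. Their mean signal ran from 11.03 to 11.14 on the Sham arrays and from 10.76 to 10.82 on the AngII arrays. In mesenteric arteries 0 of 10 were called, with a median of 0.25 and array means of 10.54 to 10.83 for Sham and 10.88 to 11.17 for AngII.

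The thoracic against mesenteric difference in AngII effect was called, downwards, for 6 of the 10 markers, among them Synpo2 at -1.02, desmin (Des) at -0.78 and calponin (Cnn1) at -0.70. In bulk samples fewer cells of a type and less RNA per cell cannot be told apart. In abdominal aorta the marker means of the treatments also did not overlap (11.21 to 11.24 for Sham, 10.98 to 11.17 for AngII). The Ramp1 arrays there overlapped. Among the thoracic Sham arrays the marker means spanned only 11.03 to 11.14, and the highest Ramp1 signal (11.82) went with the lowest of them. Whether smooth muscle content has a part in the Ramp1 values was not tested.

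**Figure D2:**
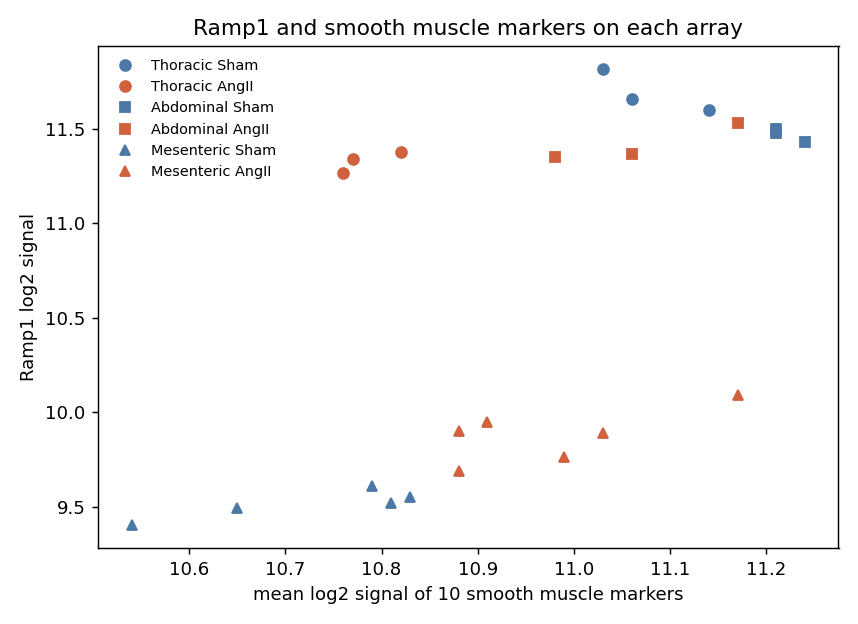
Ramp1 log2 signal (y axis) against the mean log2 signal of 10 smooth muscle markers (x axis), with 1 point per array, colour for treatment and shape for vessel. AngII arrays sit lower on both axes than Sham arrays in thoracic aorta (marker means of at most 10.82 against at least 11.03) and higher on both in mesenteric arteries (at least 10.88 against at most 10.83).

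Ramp2, the adrenomedullin receptor partner, was detected on all arrays, and its treatment differences were small. They were 0.00 ± 0.11 in thoracic aorta, 0.04 ± 0.13 in abdominal aorta and -0.02 ± 0.10 in mesenteric arteries, with 95% intervals of -0.24 to 0.25, -0.25 to 0.33 and -0.23 to 0.19. Ramp3, its counterpart, had 3 probes, and none was detected on any of the 23 arrays, with signals of 4.18 to 4.90, so it was not tested.

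Among the natriuretic peptide receptors, the clearance receptor Npr3 had the larger differences. In mesenteric arteries its brightest probe ran from 6.67 to 7.66 on the Sham arrays (median 7.04) and from 5.87 to 6.84 on the AngII arrays (median 6.31). The groups overlapped through AngII array c and Sham array a. The difference was -0.85 ± 0.19, a 1.81-fold lower signal, and missed the threshold (limma, adjusted p = 0.0667). It was -0.98 (adjusted p = 0.0319) without Sham array a, which was rich in pancreatic transcripts, and -0.84 (adjusted p = 0.105) without all 3 such arrays.

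In thoracic aorta Npr3 measured 6.21, 6.41 and 5.95 on the Sham arrays and 5.96, 5.69 and 5.38 on the AngII arrays. Sham array c lay just below AngII array a, and the difference was -0.51 ± 0.16 (limma, adjusted p = 0.0605). It passed without AngII array a (-0.65, adjusted p = 0.0391) and without Sham array c (-0.63, adjusted p = 0.0484). In abdominal aorta the Sham arrays were at 6.47, 6.53 and 6.56 and the AngII arrays at 6.12, 6.11 and 6.17. These groups did not overlap, but the difference of -0.38 ± 0.10 did not pass (adjusted p = 0.119, and 0.262 without the Acta1-rich Sham array).

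Across the 23 arrays with tissue as a covariate, Npr3 was lower with AngII by -0.64 ± 0.12 (limma, adjusted p = 0.00177). With Adm it was 1 of 2 members called in this fit, and both were called in all 33 alternatives run. No difference in AngII effect between vessels passed for this probe, with values of 0.34 ± 0.28, 0.47 ± 0.28 and -0.13 ± 0.31.

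Npr3 has 5 tested probes, and they were not equally informative. The brightest and the next brightest were detected on 23 and 22 arrays, and the others on 11, 8 and 5. All 5 were lower with AngII in mesenteric arteries, from -0.85 to -0.24, and none passed, the smallest adjusted p being 0.0532. That was for ILMN_1236914, which no mesenteric AngII array and 4 of 5 mesenteric Sham arrays detected, at least 1.3-fold lower with AngII. In the aorta the 5 probes ran from -0.51 to -0.05 in thoracic and from -0.38 to 0.16 in abdominal aorta. With tissue as a covariate 3 of the 5 passed (-0.64, -0.43 and -0.35). The probe ILMN_1236914 also gave the only call of Npr3 in a difference of AngII effect, 0.81 ± 0.21 for abdominal aorta against mesenteric arteries (adjusted p = 0.048), lost in 20 of 26 alternatives.

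**Figure D3:**
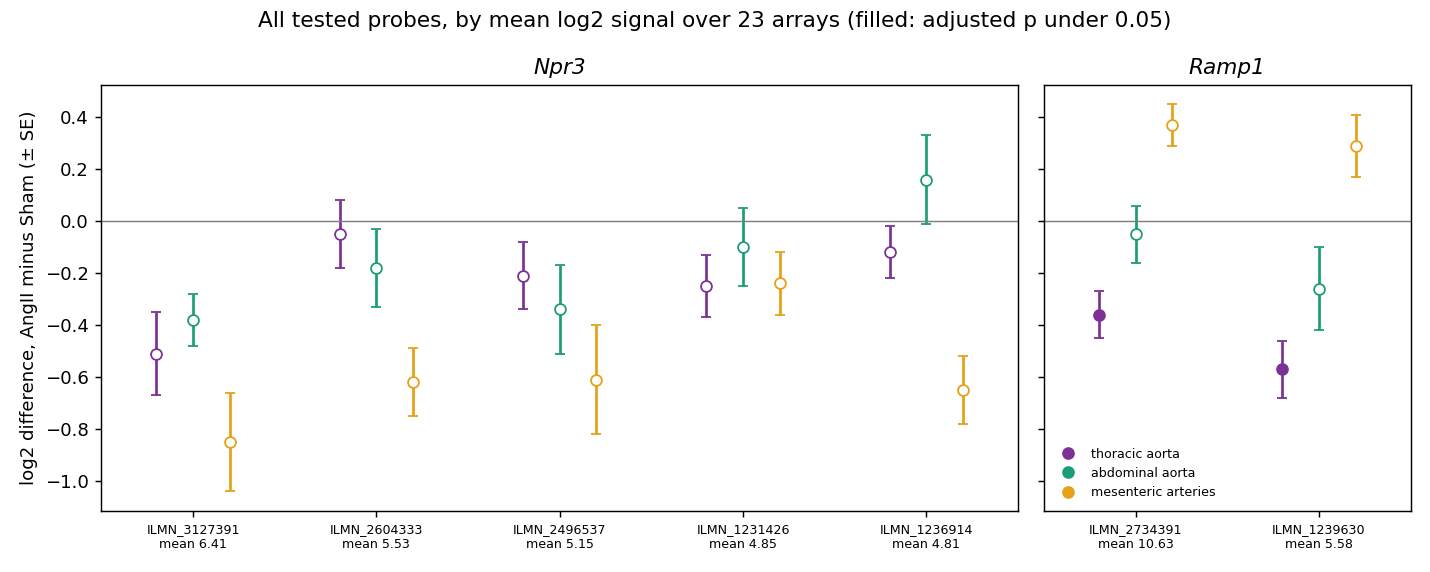
Log2 difference of AngII minus Sham (y axis, ± SE) for the 5 tested Npr3 probes and the 2 Ramp1 probes (x axis, ordered by mean log2 signal), by vessel (colour), filled where the adjusted p was under 0.05. All Npr3 probes were lower in mesenteric arteries without passing, and both Ramp1 probes were lower in thoracic aorta and passed.

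For the guanylyl cyclase receptors no difference between treatments passed in any vessel. Npr1 was detected on all 12 aortic arrays and on 0 of 11 mesenteric arrays. Its AngII differences were -0.05 ± 0.11 in thoracic and -0.17 ± 0.11 in abdominal aorta. Npr2 was detected on all arrays, with differences of -0.13 ± 0.13, -0.12 ± 0.12 and 0.04 ± 0.08 in the thoracic, abdominal and mesenteric vessels. The widest of the 95% intervals among these for Npr2 was -0.43 to 0.16, in thoracic aorta.

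**Figure D4:**
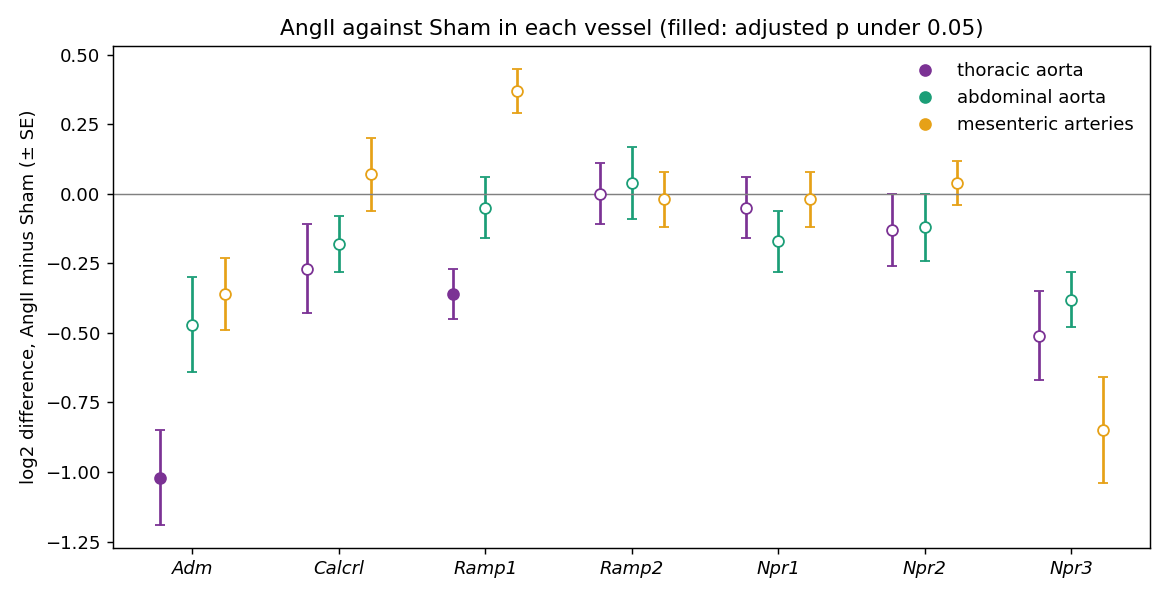
Log2 difference of AngII minus Sham (y axis, ± SE) of the 7 tested members (x axis), by vessel (colour), with filled points for an adjusted p under 0.05. Adm and Npr3 lie below 0 in all 3 vessels, Ramp1 lies below 0 in thoracic aorta and above it in mesenteric arteries, and only the thoracic values of Adm and Ramp1 passed.

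The second question was how the members differ between vessels in Sham mice. All 7 members tested differed between thoracic aorta and mesenteric arteries, 4 higher and 3 lower in aorta, against 51.8% of transcripts called, 29.2% higher and 22.5% lower. Of the 7, 6 differed between abdominal aorta and mesenteric arteries (45.9% called), 3 as higher (24.9%) and 3 as lower (21.0%), and 0 between thoracic and abdominal aorta (13.8% called, and 2 members, Calcrl and Ramp1, at an unadjusted p under 0.05). Ramp1, Npr1 and Npr2 were higher in both aortic segments than in mesenteric arteries, and Adm, Ramp2 and Npr3 were lower. Arrays did not overlap for 6 of 7 members in the thoracic against mesenteric comparison (50.1% of transcripts), for 6 in the abdominal against mesenteric one (42.6%) and for 2, Ramp1 and Npr3, between the aortic segments (33.5%).

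Ramp1 had the largest difference of the 7. The Sham arrays ran from 11.60 to 11.82 in thoracic aorta, from 11.43 to 11.50 in abdominal aorta and from 9.40 to 9.61 in mesenteric arteries. No array of a vessel reached the range of another. Thoracic aorta was 4.52-fold above mesenteric arteries (2.18 ± 0.09, adjusted p = 1.94e-15) and abdominal aorta 3.88-fold (1.96 ± 0.09, adjusted p = 3.65e-14). The other probe, which no mesenteric Sham array detected, gave at least 3.56-fold and at least 2.5-fold, but differences of only 0.44 and 0.38 with the authors' normalized values. Between thoracic and abdominal Sham aorta this probe was called (0.51 ± 0.16, adjusted p = 0.0325), while the main probe was not (0.22 ± 0.10, adjusted p = 0.141). On the authors' values the main probe was at 0.48 (adjusted p = 3.77e-05) and the other at 0.06 (adjusted p = 0.319).

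Adm was the reverse. Its signal in Sham mice was 2.78-fold lower in thoracic aorta (-1.48 ± 0.17, adjusted p = 1.91e-07) and 2.85-fold lower in abdominal aorta (-1.51 ± 0.17, adjusted p = 2.26e-07), each against mesenteric arteries. In the order of group means the mesenteric groups led (8.07 Sham, 7.71 AngII), followed by Sham thoracic (6.59), Sham abdominal (6.56), AngII abdominal (6.08) and AngII thoracic aorta (5.57). The lowest mesenteric array, at 7.23, was above the highest aortic array, at 6.84, and Sham thoracic and Sham abdominal aorta overlapped.

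Ramp2 measured 11.05, 10.84 and 10.99 on the thoracic and 11.17, 11.15 and 10.84 on the abdominal Sham arrays, against 11.37 to 11.72 (median 11.58) in mesenteric arteries. Both aortic segments lay below all mesenteric Sham arrays. The differences were -0.58 ± 0.11 (adjusted p = 0.000139) and -0.49 ± 0.11 (adjusted p = 0.00103). Thus Ramp1 and Ramp2, which pair the same receptor with different peptides, differed between aorta and mesenteric arteries in opposite directions.

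Calcrl passed for thoracic aorta against mesenteric arteries (0.44 ± 0.15, adjusted p = 0.0185), although only 2 of 3 thoracic Sham arrays and no mesenteric Sham array detected it. The call was lost without thoracic Sham array a (0.37, adjusted p = 0.0911) or c (0.31, adjusted p = 0.144), and the difference turned to -0.07 with the authors' normalized values.

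Npr1 measured 5.82, 5.83 and 5.53 on the thoracic Sham arrays, 5.56, 5.59 and 5.62 on the abdominal ones and 4.48 to 4.95 in mesenteric arteries, where it was not detected. Set against the lowest detected signal of each mesenteric array, it was at least 1.74-fold higher in thoracic aorta (adjusted p = 7.86e-08) and at least 1.58-fold higher in abdominal aorta (adjusted p = 1.14e-06). With the authors' normalized values the thoracic difference was 0.03 (adjusted p = 0.399), on a scale where the median of all transcripts stood at -0.28 against 0.07 here, and the abdominal difference was 0.20 (adjusted p = 3.62e-05).

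Npr2 measured 9.60, 9.21 and 9.15 on the thoracic Sham arrays, 9.43, 9.18 and 9.41 on the abdominal ones and 8.27 to 8.47 (median 8.33) in mesenteric arteries. The aortic and mesenteric arrays did not overlap, with differences of 0.98 ± 0.10 (adjusted p = 2.57e-08) and 1.0 ± 0.10 (adjusted p = 3.31e-08). By its brightest probe Npr3 was lower in aorta, by -0.99 ± 0.20 in thoracic (adjusted p = 0.000194) and -0.66 ± 0.20 in abdominal aorta (adjusted p = 0.00844). Arrays of this probe did not overlap either. ILMN_2604333 (-0.91 and -0.53) and ILMN_1236914 (-0.65 and -0.75) also passed in both segments without overlap. ILMN_2496537 and ILMN_1231426 passed in thoracic aorta (-0.61 and -0.36) but not in abdominal aorta (-0.38 and -0.1, limma, adjusted p = 0.172 and 0.598). Their arrays overlapped in both segments. With the authors' normalized values the Npr2 differences were 0.40 and 0.28 (adjusted p = 8.79e-05 and 0.00354).

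**Figure D5:**
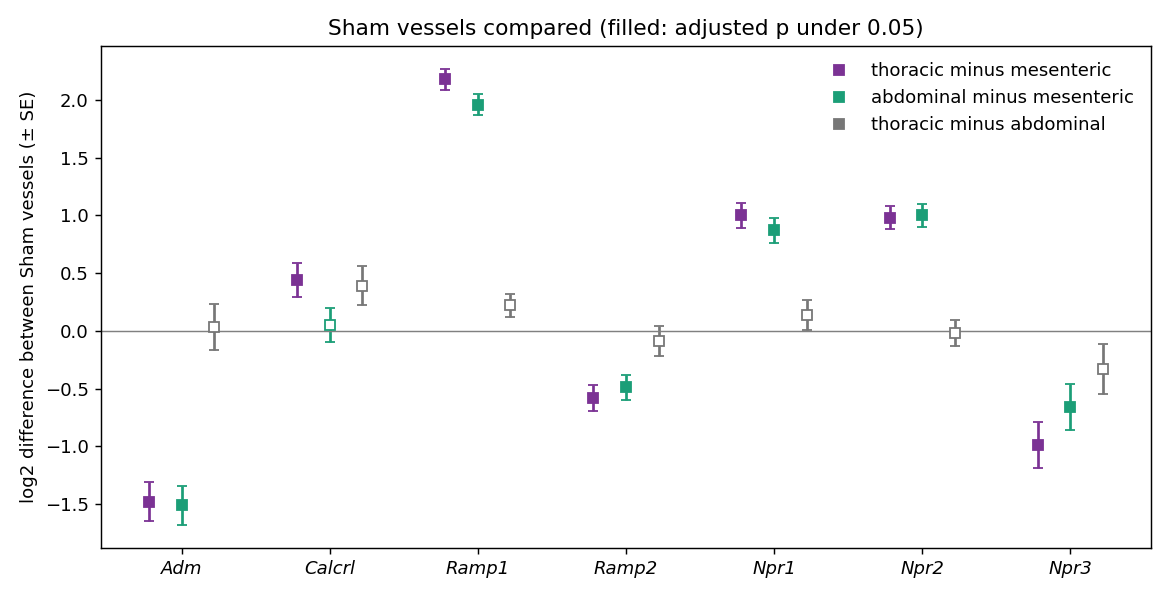
Log2 difference between vessels of Sham mice (y axis, ± SE) for the 7 tested members (x axis), for thoracic minus mesenteric, abdominal minus mesenteric and thoracic minus abdominal (colours), filled where the adjusted p was under 0.05. Ramp1, at 2.18 and 1.96, stands farthest above 0 and Adm, at -1.48 and -1.51, farthest below, while the thoracic minus abdominal values are all open.

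The cell markers differed between the same vessels. All 18 endothelial markers tested were lower in Sham thoracic than in Sham mesenteric vessels (median -1.74, array means 8.65 to 8.78 against 10.45 to 10.59), as they were in the abdominal segment (median -1.25). White adipocyte markers were lower for 10 of 11 (median -1.87 in thoracic and -2.15 in abdominal aorta), macrophage markers for 10 of 10 (median -1.29 and -1.14) and lymphatic endothelial markers for 6 of 6 (median -2.29 and -1.85). Smooth muscle markers were higher for 8 and lower for 1 of 10 in thoracic aorta (median 0.64) and higher for 7 and lower for 1 in abdominal aorta (median 0.49). Brown adipocyte markers were higher for 6 of 8 in thoracic aorta (median 1.30, array means 7.92 to 8.84 against 6.23 to 6.51), whereas in abdominal aorta 0 of 8 were called (6.10 to 6.48). Of 4 nerve and Schwann cell markers, 3 were lower and 1 higher in thoracic aorta (5.73 to 5.85 against 8.03 to 8.33) and 3 lower in abdominal aorta (6.18 to 6.73). Mesothelial markers were lower for 3 of 5 in both segments. The part of this cell makeup in the members' vessel differences was not tested.

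With AngII in thoracic aorta, where Adm fell, 7 of 10 fibroblast, 7 of 11 white adipocyte and 4 of 10 macrophage markers were higher and none of these lists had a lower member. Also higher were 3 of 6 lymphatic endothelial markers (array means 6.36 to 6.62 with Sham, 6.88 to 7.22 with AngII), 3 of 4 nerve and Schwann cell markers (5.73 to 5.85 with Sham, 6.15 to 6.40 with AngII), 1 of 5 mesothelial and 1 of 8 brown adipocyte markers. Of 18 endothelial markers 5 were higher and 2 lower (array means 8.65 to 8.78 with Sham and 8.86 to 8.91 with AngII). In abdominal aorta, where Adm was not called, 2 of 10 fibroblast, 2 of 10 macrophage and 1 of 4 nerve markers were higher. In mesenteric arteries 0 markers of these lists were called. Their part in the Adm values was not tested either. Of 9 hypoxia-responsive genes tested, beside which Adm is often listed, 2 were higher and 0 lower in thoracic aorta. These were Ldha (0.40) and Ddit4 (0.57), named after their values were seen.

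The surrounding pathway was followed through lists of genes known for their roles. Of 8 other ligands, Calca had no probe that matched, and the probes of the adrenomedullin relative Adm2, Calcb, Iapp, Nppa, Nppb, Nppc and Ostn were detected on fewer than 3 arrays each, so that no peptide other than adrenomedullin was tested. The 8 genes of peptide processing and breakdown were all tested. With AngII, carboxypeptidase E (Cpe), which trims peptide precursors, was lower in thoracic aorta (-0.39, adjusted p = 0.0145). Corin, the protease that activates pro-atrial natriuretic peptide, was lower in abdominal aorta (-0.68, adjusted p = 0.0381), where 2 of 3 Sham and 0 of 3 AngII arrays detected it, which bounds the fold at 1.04 or more.

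Between Sham vessels many processing genes differed, as did 51.8% of all transcripts for thoracic and 45.9% for abdominal aorta against mesenteric arteries. Corin ran from 8.96 to 9.34 in mesenteric arteries and was on no thoracic Sham array well above background, at least 17.8-fold lower, and 16.7-fold lower in abdominal aorta. The amidating enzyme Pam, which finishes adrenomedullin and CGRP, was higher in thoracic (0.90) and abdominal aorta (1.07), as was Cpe (1.38 and 1.20). The peptidase Dpp4 was lower (-1.55 and -2.35), as was the endothelin-converting enzyme Ece1 (-1.06 and -0.77). Furin, a precursor-cleaving protease, was higher (0.30 and 0.20), and neprilysin (Mme), which degrades natriuretic peptides, was lower in thoracic aorta (-0.72). Ackr3, a scavenger receptor of adrenomedullin, was also lower in both (-1.20 and -1.45). Crcp, the CGRP receptor component, was lower in Sham thoracic aorta than in mesenteric arteries (-0.35) and higher with AngII in thoracic aorta (0.38, adjusted p = 0.0259).

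Receptor trafficking and coupling genes, such as the beta-arrestins, gave no call with AngII in any vessel among 9 tested. In Sham thoracic aorta 5 were lower and 1 higher than in mesenteric arteries, a comparison in which 51.8% of all transcripts were called. The largest difference was in the arrestin Arrb1 (-1.64). The other arrestin Arrb2 was at -0.84, the G protein subunits Gnaq and Gnas at -0.42 and 0.39, the recycling factor Rab11a at -0.51 and the scaffold Slc9a3r1 at -0.33. In abdominal aorta 6 were lower, against 21.0% of all transcripts, among them Arrb1 (-0.73) and the receptor kinase Grk5 (-0.49). Of 13 genes of the cAMP branch, through which adrenomedullin and CGRP signal, 3 were higher and 2 lower with AngII in thoracic aorta. The regulatory kinase subunit Prkar2b (1.02), the cAMP-activated exchange factor Rapgef3 (0.80) and the adenylyl cyclase Adcy4 (0.37) were higher, and the transcription factor Creb1 (-0.43) and the kinase catalytic subunit Prkacb (-0.31) were lower. None was called in abdominal aorta or mesenteric arteries.

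Of 11 genes of the cGMP branch, through which Npr1 and Npr2 signal, 3 were lower and 1 higher with AngII in thoracic aorta. The myosin phosphatase subunit Ppp1r12a was at -1.0 ± 0.12 (adjusted p = 0.000863), the cGMP phosphodiesterase Pde5a at -0.68 ± 0.09 (adjusted p = 0.00153) and the potassium channel Kcnma1 at -0.45 ± 0.10 (adjusted p = 0.0203). Pde2a, another phosphodiesterase, was at 0.55. For 5 of the 11 the AngII effect in thoracic aorta was called below that in mesenteric arteries, with Ppp1r12a at -1.08 and Pde5a at -0.72. Of all transcripts 5.99% were called lower in that test. In Sham mice Pde5a was 4.18-fold higher in the thoracic segment than in mesenteric arteries (2.06), as was the kinase partner Mrvi1 (1.21), and phospholamban (Pln), a regulator of calcium uptake and a target of cGMP-dependent kinase, was at least 4.24-fold lower.

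For each member detected on at least 12 arrays the genes with the most similar profile were listed out of 9863 genes. The likeness is Pearson's r over the 23 arrays, which mostly follows the vessels, and r after subtracting the mean of each vessel is given beside it, both as descriptions. Ramp1 ran closest to Strbp (0.994, within vessels 0.857), then to Auts2 (0.991, within vessels 0.76) and Abcc9, a subunit of vascular potassium channels (0.99, within vessels 0.749). Adm ran closest to Susd4 (0.964, within vessels 0.87), then to Abca8a (0.958, within vessels 0.738) and the growth factor Igf2 (0.957, within vessels 0.772). Npr3 had no profile as close, the nearest being the tubulin Tuba1b (0.83, within vessels 0.724). For Npr1 the nearest was Hs6st2 (0.956), which within vessels was at 0.409. For Npr2 it was Cmya5 (0.98, within vessels 0.587) and for Ramp2 Plcg2 (0.925, within vessels 0.636). Ranked by r within vessels instead, Ramp1 was nearest to Hspb6 (0.9), Casz1 (0.888) and Mrvi1 (0.886). By that ranking Adm was nearest to Susd4 (0.87) and Npr3 to Ermp1 (0.797). It gave Ahsa2 for Npr1 (0.718), Ppfia1 for Npr2 (0.684) and Stn1 for Ramp2 (0.702).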

How the data were processed

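The authors hybridized pooled vessel RNA to Illumina WG-6 v2.0 chips. One deposited table holds intensity values without normalization, some below 0, and its other columns are deposited detection p-values. In a second deposited table the authors gave log2 values made with lumi (R 3.0.2, robust spline method), whose array medians differ by vessel (6.77 in thoracic aorta, 7.03 to 7.04 in abdominal aorta, 6.95 to 6.96 in mesenteric arteries).

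Intensities were processed with neqc (offset 16) in limma 3.58.1 under R 4.3.3 with statmod 1.5.0. Intensity columns were assigned to groups by the letters in their names (P and B read as the Polish words for thoracic and abdominal, K as control), and each of the 23 correlated best with a deposited log2 column of its own group. AngII was compared with Sham in a limma fit per vessel. Sham vessels and differences in AngII effect were compared in a fit of 6 group means. Tests were two-sided, with Benjamini-Hochberg adjustment over 20585 transcripts and a threshold of 0.05. These fits treat arrays as independent, although pools of different vessels share mice. The p-values of fits across vessels do not allow for this sharing. The code was tested on simulated data. Plots were drawn with matplotlib 3.10.9 in Python 3.11.15.

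Probes were named from the platform annotation, in which 34885 carried a single symbol, 18 several and 10378 none. A gene was represented by its probe with the highest mean signal. Where no array of a group detected a probe, the fold is a lower bound against the lowest detected signal of those arrays. Named genes were the members and the called genes of the pathway lists. Those called with AngII within a vessel were all named, others by examples and counts. Also named were up to 3 examples of a marker list and up to 3 most similar profiles per member, over arrays or within vessels. The members and all lists were chosen with earlier results of these data known. Alternatives covered the authors' values, background correction, normalization, filters, the offset, the fit, array weights, a replicate block and leaving out arrays. Array number and signal over background limit the precision.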

Additional observations from a re-analysis of the deposited data

Results flagged for a closer look

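In mesenteric AngII array f the Calcrl signal was 5.04, and the nearest other array of the group lay at 4.43. That gap took up 0.85 of the range of the 6 arrays, above Dixon's critical value for 6 arrays, and array f was the only mesenteric array that detected the probe. Chance alone would pass this limit in about 1 in 20 for each group, and 14 groups were examined in this way. The signal of 5.04 was close to background, as the lowest detected signal of array f was 5.02.

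The difference in AngII effect on Ramp1 between thoracic aorta and mesenteric arteries, -0.72 ± 0.12 (limma interaction, adjusted p = 0.000464), drew attention because the effect differed between the vessels by a test of the difference itself. All 3 thoracic AngII arrays were below all thoracic Sham arrays, and all 6 mesenteric AngII arrays were above all mesenteric Sham arrays.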

How the results depend on the processing

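Adm in thoracic aorta, and Adm and Npr3 with tissue as a covariate, were called in all of their alternatives (17, 33 and 33), and the Ramp1 difference in AngII effect between thoracic aorta and mesenteric arteries in all 26 (-0.77 to -0.66). Adm in thoracic aorta was -0.35 with the authors' values. Over the 8 members, 1413 of 1508 alternative values kept direction and call, 22 gained a call, 9 lost it and 64 changed sign. Of these 64, 61 were called under neither setting. The other 3 came with the authors' values, Calcrl in Sham thoracic aorta against mesenteric arteries (-0.07) and against abdominal aorta (-0.19), and Npr1 in the latter (-0.17), as did a weak Npr3 probe there (-0.24). The cause was not tested. On that scale the median of all transcripts shifted from 0.07 to -0.28, 0.05 to -0.20 and 0.01 to -0.12 in the 3 Sham comparisons.

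Members called in mesenteric arteries numbered 0 as reported and 1 with the authors' values (Ramp1), 2 with transcripts detected on every array (Ramp1 and Npr3), 2 in a fit of 6 group means, 1 with a prior that follows the signal and 1 with an offset of 50. For thoracic against abdominal Sham aorta the count went from 0 to 3 with the authors' values, and for the AngII effect in abdominal aorta against mesenteric arteries from 0 to 1 with the signal-dependent prior or the offset of 50. Leaving out single arrays gave 1 to 2 members in thoracic aorta, 0 to 1 in mesenteric arteries and 0 in abdominal aorta. Among Sham vessels it gave 6 to 7 for thoracic against mesenteric, 6 for abdominal against mesenteric and 0 to 1 for thoracic against abdominal. For the AngII effect against mesenteric arteries it gave 1 to 2 in thoracic and 0 to 1 in abdominal aorta. Over all settings the count was 5 to 8 for Sham thoracic against mesenteric (7 as reported), where Ramp3 was tested only without a filter. It was 5 to 7 for Sham abdominal against mesenteric (6 as reported) and 1 to 3 for AngII in thoracic aorta (2 as reported).

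Transcripts called in abdominal aorta (225) were 19 with the authors' values, 67 without background correction, 9 without a filter, 979 in a fit of 6 group means, 397 with array weights and 4 without the Sham array rich in skeletal muscle transcripts. In mesenteric arteries (70) they were 142, 39, 19 and 391 under the first 4 of these, 43 with neqc within each tissue, 154 with detection on every array, 126 with the offset of 50 and 8 without the 3 arrays rich in pancreatic transcripts. Leaving out single arrays gave 1972 (without Sham array b) to 2909 in thoracic aorta (3552), 0 (without AngII array b) to 500 (without AngII array c) in abdominal aorta and 0 (without Sham array c) to 153 (without Sham array a) in mesenteric arteries. The settings without tissue-rich arrays were chosen after seeing the data.

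With the authors' values and the replicate number as a replicate block, 2 transcripts were called in abdominal aorta and 0 in mesenteric arteries, and 3575 in thoracic aorta, where 2 members passed (Adm -0.35, Ramp1 -0.35). Correlations of same-numbered deviations of AngII and Sham ran from -0.01 to 0.20 in thoracic aorta and 0.02 to 0.28 in abdominal aorta. In mesenteric arteries they ran from -0.56 to 0.86. In that order of vessels 2 of 3, 1 of 3 and 3 of 5 pairs were over 0.1. With so few pairs these values cannot decide whether the number pairs samples. The number was not taken to pair them. The effect of mice shared between vessels was not tested. With 3 arrays a group and probes near background (Calcrl, Ramp3, weak Npr3 probes), small differences were not detectable.

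The remaining changes of sign concerned differences that were called under neither setting. With the authors' values Sham thoracic against abdominal aorta turned for Adm (-0.11), Npr2 (0.12) and Ramp2 (0.15), the AngII effect in abdominal aorta against mesenteric arteries for Adm (0.11), that in thoracic aorta against mesenteric arteries for a weak Npr3 probe (0.01) and mesenteric Ramp2 (0.01). With those values and the replicate block, mesenteric Ramp2 was 0.04 and Calcrl -0.01. Cyclic loess turned mesenteric Npr1 (0.07) and Ramp2 (0.02), thoracic Npr1 (0.01) and an Npr3 probe (0.04), the weaker Ramp1 probe over all vessels (0.01), Adm between Sham aortic segments (-0.01), and in AngII effects a weak Npr3 probe (0.07) and Npr2 (0.01). Array weights turned Adm (-0.01) there, abdominal Ramp2 (-0.01), and AngII effects of Adm (0.05), Ramp2 (0.05), Calcrl (0.01), Npr2 (0.01) and a weak Npr3 probe (0.03, and 0.01 with the offset of 50). Without the pancreas-rich arrays mesenteric Npr1 and that Npr3 probe were 0.07, and without the muscle-rich array Adm and Npr2 between Sham aortic segments were -0.06 and 0.03.

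Leaving out single arrays crossed 0 for Npr2 (-0.22 to 0.01) and an Npr3 probe (-0.16 to 0.05) in thoracic aorta, Ramp2 (-0.07 to 0.10) and an Npr3 probe (-0.03 to 0.29) in abdominal aorta, and Calcrl (-0.04 to 0.15), Npr1 (-0.08 to 0.04) and Ramp2 (-0.08 to 0.03) in mesenteric arteries. Between Sham aortic segments it did so for Adm (-0.09 to 0.21) and Npr2 (-0.16 to 0.07). Among differences in AngII effect it did so for Npr1 (-0.13 to 0.03), Ramp2 (-0.06 to 0.08) and an Npr3 probe (-0.12 to 0.10) in thoracic aorta against mesenteric arteries, for Adm (-0.31 to 0.02) and Ramp2 (-0.05 to 0.12) in abdominal aorta against mesenteric arteries, and for Calcrl (-0.29 to 0.05), Npr2 (-0.09 to 0.13), Ramp2 (-0.12 to 0.07) and 3 Npr3 probes (-0.27 to 0.02, -0.04 to 0.29 and -0.01 to 0.23) between the aortic segments.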
